A study of Mus musculus with 10 samples.

Results

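A set of 10 genes for ubiquitin ligases linked to muscle atrophy were followed in gastrocnemius of diet-induced obese (DIO) mice given an antisense oligonucleotide (ASO) against miR-22. They were taken by symbol, namely the F-box genes Fbxo32, Fbxo30, Fbxo21 and Fbxo31, the TRIM genes Trim63, Trim55 and Trim54, and Traf6, Nedd4 and Cblb. All 10 were found among the 21160 genes of the count table, and 9 had enough counts to be tested. The animals were male C57BL/6J mice of wild-type genotype, 30 weeks old per the labels, and both groups ate a high fat diet (D12492i), which began at 9 weeks of age and 9 weeks before the first injection. With the weeks of treatment, these times add up to more than the labelled age. The ASO group received 10 mg/kg of the anti-miR-22 ASO (labelled RES-010) subcutaneously each week for 14 weeks, and the control group (CTRL) received saline (labelled VHL, vehicle). Each group had 5 RNA-seq libraries, and no lean or untreated group was part of the comparison. Mice were randomized to saline or ASO per the study's methods, but the labels number the samples without tying each to an animal, so p-values measure the spread between these samples. In the paper's list of body weights, most saline-treated DIO mice were lighter at the first weighing than every ASO-treated DIO mouse. The part of that difference in the values below was not tested.

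Ubiquitin ligases choose the proteins that are tagged with ubiquitin, most often for breakdown by the proteasome. F-box proteins are the substrate-binding subunits of SCF ligases, in which Skp1 ties them to the scaffold Cul1 and to the RING protein Rbx1. RING ligases such as the muscle-specific TRIM proteins, Traf6 and Cblb hold an E2 enzyme next to the substrate, whereas HECT ligases such as Nedd4 carry the ubiquitin themselves before passing it on. In skeletal muscle, Fbxo32 (atrogin-1, or MAFbx) and Trim63 (MuRF1) are known for rising together in fasting, disuse and glucocorticoid excess, under FoxO transcription factors that insulin and Akt signaling keep out of the nucleus.

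The sequences that bear on the comparison are the ASO's target and sites for it or for FoxO in the ligase genes. The mature miR-22-3p from RefSeq is shown with its seed, bases 2 to 8, in capitals.
miR-22-3p: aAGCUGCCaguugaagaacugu
The heptamer complementary to that seed, GGCAGCT, was sought in the canonical 3′UTR of each ligase, and 1 of the 10 held it, against 17.8% of 7771 tested genes with an annotated 3′UTR. The match was in Trim54, the ligase that is not among the tested genes. It lies at chr5:31296321-31296327 on the plus strand of GRCm39, 492 bp before the end of its 3′UTR and outside the stretch that was counted. It is shown with 10 bases on each side and the match in capitals.
Trim54 3′UTR: caatgacaccGGCAGCTttgagtccag
The other 9 canonical 3′UTRs held no such heptamer, though the median length over the 10 was 2633 bp against 1457 bp over the tested genes. For Trim63 the canonical 3′UTR is 271 bp and does not hold the whole counted segment. The 3′UTRs of its other transcripts were not searched. The FoxO core motif GTAAACA, read on both strands of the promoter from 250 bases before to 50 after the start, was present in 1 of the 8 ligases with a promoter in RefSeq's GRCm38.p6 table and in 3.65% of 32851 promoters. That 1 was Trim63, with the motif on the minus strand 194 bases before the start, in capitals within its surrounding bases on the gene's strand.
Trim63 promoter: agtctgttctTGTTTACgacccccacg
Both matches are descriptions of letters and not binding sites, and Fbxo32 and Trim55 had no promoter entry. For the motif, a ligase was counted once over all its promoters, whereas the 3.65% is a share of single promoters.

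Where each ligase was counted sets what its level measures, because the authors counted read pairs only on segments of at most 500 bp. The methods place these at the end of 3′UTRs. The 10 ligases had 26 such segments, 15 of them with counts, and none shared a base with a segment of another gene. Fbxo32, Fbxo31, Traf6, Trim63 and Trim55 drew all of their counts on segments that end within 200 bp of the most distal segment end in the table, and Cblb drew 99.2% there. That distal end is the table's own, and in GENCODE M39 the Traf6 transcript runs on for another 1531 bp. The Cblb transcript runs on for 318 bp, and the canonical Trim54 transcript for 1847 bp past its segment. Nedd4 and Fbxo21 were the opposite case, with 98.7% and 98.9% of their counts on 1 segment lying 1694 and 1639 bp upstream of the most distal end. Fbxo30 was split, with 69.3% on its most distal segment and 30.7% on a segment 2534 bp upstream. The transcript of that upstream segment runs on for 2544 bp past it in GENCODE M39. Ligase segments without a base of their own, such as those at the distal end of Nedd4, drew 0 counts. The bases of the counted segment that no other segment shares came to 20 bp for Trim63 and 171 bp for Trim55, in both at its upstream edge, and to 2 bp for Trim54. For Trim63 and Trim55 those bases thus lie about 500 bp or more before the distal end, although their segments end near it.

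**Figure D1:**
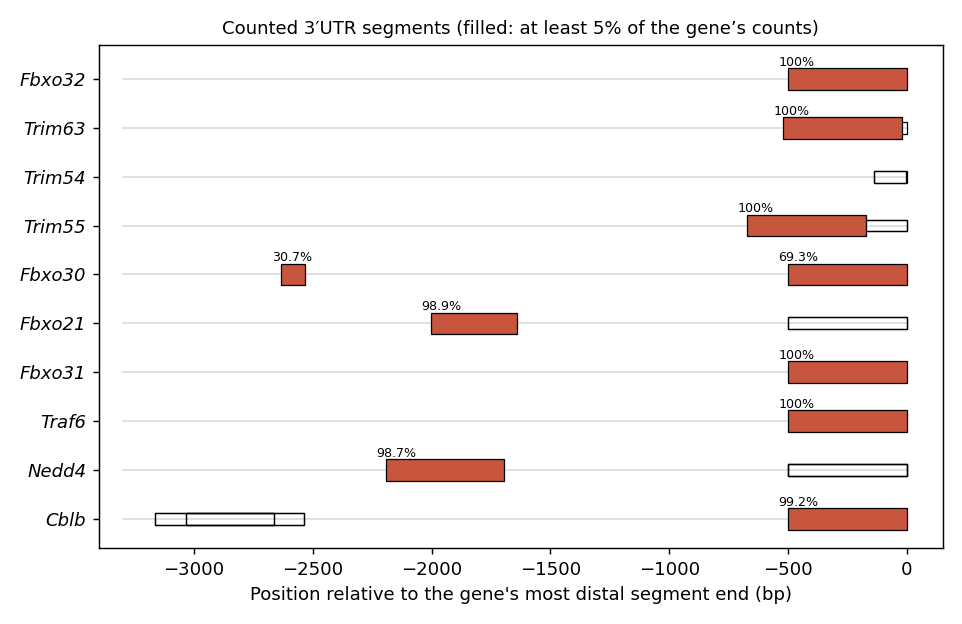
Counted 3′UTR segments of each ligase gene as the deposited table gives them, drawn by distance in bp from the gene's most distal segment end. Filled boxes hold at least 5% of the gene's counts and open boxes fewer, except that the Trim54 segment with 1 count is drawn open. The Nedd4 segments 29062 and 29497 bp upstream are not drawn. Nedd4 and Fbxo21 were counted almost wholly on upstream segments and Fbxo30 on 2 segments.

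The libraries themselves differed in depth and in position. Totals were 1606909 to 2116720 counts in CTRL and 2239186 to 2632560 in ASO, so every ASO library was deeper, and levels are therefore given as CPM (counts scaled to a common library size) on TMM-scaled library sizes. Over 1259 genes with counts on both a distal and an upstream segment, the median log2 ratio of distal over upstream counts was −0.589 to 0.434 in CTRL libraries and 1.18 to 1.77 in ASO libraries. ASO libraries were thus shifted toward the distal end without overlap between the groups, and the shift is given below beside the ligases it touches. Among genes with at least 90% of their counts on segments ending 1000 bp or more upstream, 40.8% of 1256 were lower and 5.57% higher (median log2 fold change −0.50). Among those with at least 90% on segments ending within 200 bp of the distal end, 4.81% of 3636 were lower and 19.2% higher (median 0.22).

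Across the 9 tested ligases, 3 had lower counts with the ASO (Nedd4, Fbxo21 and Trim63), 1 had higher counts (Fbxo31) and 5 did not pass the threshold, which was a Benjamini-Hochberg adjusted p under 0.05 over 7819 genes in the quasi-likelihood test of edgeR. Of all tested genes, 17.5% were lower and 11.7% higher, so the 33.3% of ligases lower and the 11.1% higher stand beside a background in which 29.2% of genes were called. The median log2 fold change over the 9 ligases was −0.32, against −0.03 over all genes tested. In 2 ligases, Nedd4 and Fbxo31, the groups did not overlap, which held for 21.4% of all genes (13.4% lower and 7.98% higher). In bulk tissue, fewer cells of a type and less RNA per cell cannot be told apart for any of these values.

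**Figure D2:**
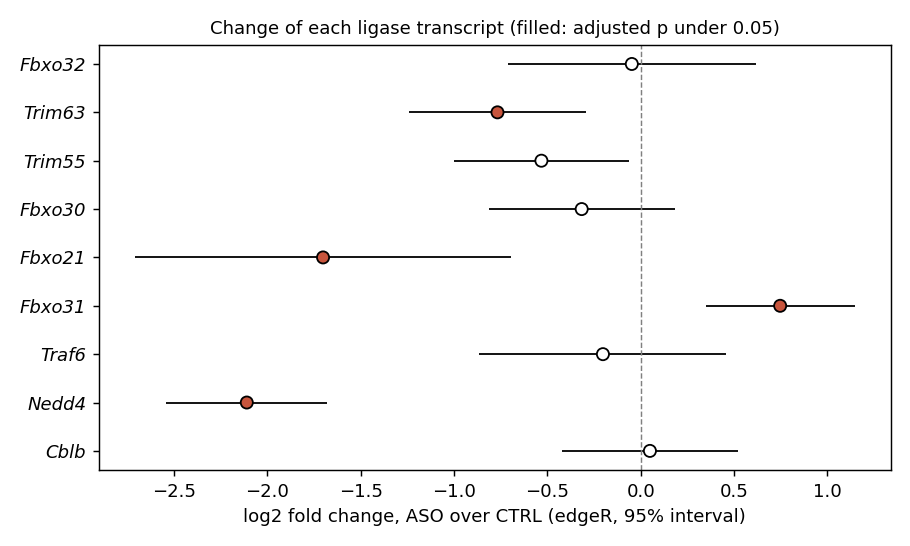
Log2 fold change of ASO over CTRL for each of the 9 tested ligases, with the 95% interval from edgeR as a bar and filled points for an adjusted p under 0.05. Nedd4 (−2.11), Fbxo21 (−1.70) and Trim63 (−0.77) lie left of 0 and Fbxo31 (0.75) right of it, and the intervals of Fbxo32, Fbxo30, Traf6 and Cblb include 0.

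Fbxo32, the F-box protein of an SCF ligase known to act on the initiation factor subunit eIF3f and on MyoD, did not differ between the groups beyond their spread. It was counted at chr15:58039275-58039774 (minus strand, GRCm39), the last 500 bp of a 5587 bp 3′UTR, and an AATAAA hexamer lies 18 bp before that end. CTRL libraries were at 124, 175, 156, 147 and 152 CPM, and ASO libraries at 104, 301, 111, 137 and 75.9 CPM. All CTRL libraries lay in a narrow band, whereas ASO replicate 2 was above every other library and ASO replicate 5 below every other. The means were 151 ± 18.6 CPM in CTRL and 146 ± 89.5 CPM in ASO (SD, n = 5 each), that is a log2 difference of −0.05 with a 95% interval of −0.71 to 0.62 (edgeR, adjusted p = 0.92). The coefficient of variation was 12.4% in CTRL and 61.4% in ASO. One library decided the value, since without ASO replicate 2 the other ASO libraries averaged 107 ± 25.1 CPM (SD, n = 4) and the log2 fold change was −0.48, short of the threshold (edgeR, adjusted p = 0.061). Upper quartile scaling also turned its sign, to 0.04.

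Fbxo30 (MUSA1), an F-box protein known for its induction when BMP signaling is blocked in muscle, gave different answers on its 2 counted segments. The distal one, chr10:11173297-11173796 (plus strand), had 40, 36, 27, 20 and 30 counts in CTRL and 28, 49, 48, 56 and 25 in ASO, with the groups interleaved. Its mean was 15.5 ± 2.88 CPM in CTRL and 17.96 ± 5.02 CPM in ASO (SD, n = 5 each), that is a log2 difference of 0.25 (edgeR on single segments, adjusted p = 0.42). The upstream 98 bp segment, chr10:11171165-11171262, had 29, 16, 17, 16 and 36 counts in CTRL against 7, 11, 9, 11 and 7 in ASO. Here every ASO library was below every CTRL library, and the mean fell from 11.8 ± 5.25 to 3.95 ± 0.652 CPM (SD, n = 5 each), that is a log2 difference of −1.52 (edgeR on single segments, adjusted p = 0.0026), where 24.7% of 10658 segments were lower. The log2 ratio of distal over upstream counts was 0.46 ± 0.51 in CTRL and 2.09 ± 0.25 in ASO (SD, n = 5 each; exact permutation test, two-sided, p = 0.0079, which 5 against 5 cannot go below). This is the direction of the shift seen over all genes, whose part in the Fbxo30 ratio was not tested. Summed over both segments, Fbxo30 was at 27.4 ± 7.06 CPM in CTRL and 21.9 ± 5.61 CPM in ASO (SD, n = 5 each), with a log2 fold change of −0.32 and a 95% interval of −0.81 to 0.18 (edgeR, adjusted p = 0.32).

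Fbxo21 (SMART), an F-box protein placed among the FoxO-dependent ligases of atrophy, had 3.25-fold lower counts with the ASO. Of its counts, 282 of 285 came from chr5:118146263-118146627 (plus strand), a 365 bp segment at an earlier transcript end, and the 2 segments at the distal end share all but 1 base each. CTRL libraries were at 14.6, 9.33, 33.1, 27.7 and 25.3 CPM, and ASO libraries at 11.6, 11.5, 2.96, 2.50 and 5.19 CPM. The groups overlapped, since CTRL replicate 2 was below ASO replicates 1 and 2, while ASO replicates 3 to 5 were below every CTRL library. The means were 22.01 ± 9.77 and 6.74 ± 4.49 CPM (SD, n = 5 each), that is a log2 difference of −1.70 with a 95% interval of −2.71 to −0.69 (edgeR, adjusted p = 0.016). On log2 CPM, the exact permutation test (two-sided) gave p = 0.024. With nearly all counts upstream, a shift of Fbxo21 counts toward the distal end and a fall of the gene's RNA cannot be told apart. Among the 1256 genes counted as far upstream, 14.7% had a log2 fold change at or below that of Fbxo21. In a fit to those genes alone, chosen after seeing the data as were the other fits by position below, it was −1.24 (edgeR, adjusted p = 0.027).

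Fbxo31, whose SCF ligase is known to act on cyclin D1, was the ligase with higher counts, by 1.68-fold. It has 1 counted segment, chr8:122276179-122276678 (minus strand), all 500 bp of it unshared. CTRL libraries were at 197, 192, 104, 158 and 147 CPM, and ASO libraries at 251.5, 282, 257, 217 and 331 CPM. Every ASO library exceeded every CTRL library. The means were 159 ± 37.8 and 268 ± 41.9 CPM (SD, n = 5 each), that is a log2 difference of 0.75 with a 95% interval of 0.35 to 1.14 (edgeR, adjusted p = 0.0096), and the two-sided exact permutation test gave p = 0.0079. Of the 3636 genes on segments ending near the distal end, 11.3% had a log2 fold change at or above that of Fbxo31, and in a fit to those genes alone it was 0.50 and short of the threshold (edgeR, adjusted p = 0.076).

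Trim63 (MuRF1), a RING ligase known to bind titin and to act on thick filament proteins and troponin I, was 1.70-fold lower with the ASO. It was counted at chr4:134056421-134056920 (plus strand), where 670 counts were drawn and 20 bp lie outside an overlapping segment that drew 0. CTRL libraries were at 34.4, 44.8, 32.6, 50.7 and 42.7 CPM, and ASO libraries at 21.2, 36.5, 16.1, 24.6 and 21.7 CPM. In all, 4 of the 5 ASO libraries were below every CTRL library, and ASO replicate 2, the library highest for Fbxo32, lay within the CTRL range. The means were 41.0 ± 7.51 and 24.03 ± 7.64 CPM (SD, n = 5 each), that is a log2 difference of −0.77 with a 95% interval of −1.24 to −0.29 (edgeR, adjusted p = 0.019; two-sided exact permutation test, p = 0.024). The call was lost without ASO replicate 1, 3 or 5 or CTRL replicate 4, with edgeR adjusted p of 0.052, 0.050, 0.057 and 0.054. Of the 3636 genes on segments ending near the distal end, 6.6% had a log2 fold change at or below that of Trim63, and in a fit to those genes alone it was −1.01 (edgeR, adjusted p = 0.021). Its unshared bases lie farther upstream than those segments' ends, and the part of the distal shift in its value was not tested.

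Trim55 (MuRF2), the close relative of Trim63 that links titin to microtubules, was also lower on average but did not pass the threshold. Its counts came from chr3:19746086-19746585 (plus strand). CTRL libraries were at 57.5, 71.8, 46.9, 77.3 and 91.5 CPM, and ASO libraries at 59.4, 60.7, 41.9, 32.1 and 44.3 CPM. CTRL replicate 3 fell among the ASO libraries, and ASO replicates 1 and 2 among the CTRL libraries. The means were 69.0 ± 17.3 and 47.7 ± 12.2 CPM (SD, n = 5 each), that is a log2 difference of −0.53 with a 95% interval of −1.001 to −0.06 (edgeR, adjusted p = 0.082; two-sided exact permutation test, p = 0.056). Without CTRL replicate 3 it was −0.65 and past the threshold (edgeR, adjusted p = 0.037).

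Trim54 (MuRF3), the remaining MuRF protein, was not measurable in these counts. Its 2 segments of 137 and 135 bp at chr5:31294838-31294974 overlap in all but 2 bases, and they drew 1 count in all, in CTRL replicate 2. With both groups under the floor of 3 counts no fold is given, and its level in gastrocnemius was not detectable in this table. The 3′UTR with the miR-22-3p seed match shown above therefore has no value to set beside it.

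Nedd4, a HECT ligase known in muscle for its induction by unloading and denervation and for acting on Notch1, had the lowest log2 fold change of the 9 tested ligases. It was counted at chr9:72654941-72655440 (plus strand), the end of a transcript annotated as nonsense-mediated decay that lies inside the canonical 3′UTR, while the 3 identical segments at the distal end, chr9:72656635-72657134, drew 0 counts. CTRL libraries were at 312, 332, 441, 446 and 528 CPM, and ASO libraries at 103, 114, 63.4, 104 and 91.5 CPM. Every ASO library was below every CTRL library, with the lowest CTRL library well clear of the highest ASO library. The means were 412 ± 89.0 and 95.4 ± 19.6 CPM (SD, n = 5 each), a 4.32-fold decrease and a log2 difference of −2.11 with a 95% interval of −2.54 to −1.68 (edgeR, adjusted p = 1.1e-04; two-sided exact permutation test, p = 0.0079). With no count at the distal end in any library, a shift of Nedd4 counts toward that end and a fall of the gene's RNA cannot be told apart. Of the 1256 genes counted as far upstream, 111 (8.84%) had a log2 fold change at or below that of Nedd4. In a fit to those genes alone, it was −1.65 (edgeR, adjusted p = 2.3e-05).

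Traf6, a RING ligase that builds signaling ubiquitin chains on the way to NF-κB, was low and did not differ between the groups beyond their spread. On chr2:101531515-101532014 (plus strand) it had 14, 20, 21, 16 and 9 counts in CTRL and 7, 19, 22, 19 and 14 in ASO, so the ranges largely coincided. The means were 8.16 ± 2.23 and 7.06 ± 2.27 CPM (SD, n = 5 each), with a log2 fold change of −0.20 and a 95% interval of −0.86 to 0.46 (edgeR, adjusted p = 0.65). That interval allows a change of nearly 1 on the log2 scale in the lower direction at this depth.

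Cblb, a RING ligase known to act on IRS-1 in unloaded muscle, was likewise low and did not pass the threshold. Its distal segment, chr16:52027912-52028411 (plus strand), had 30, 22, 25, 19 and 19 counts in CTRL and 23, 31, 23, 38 and 21 in ASO, with the groups interleaved. The means over all its segments were 11.7 ± 1.56 and 12.1 ± 2.603 CPM (SD, n = 5 each), that is a log2 difference of 0.05 with a 95% interval of −0.42 to 0.52 (edgeR, adjusted p = 0.88). The sign turned to −0.12 when libraries were scaled by total counts.

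**Figure D3:**
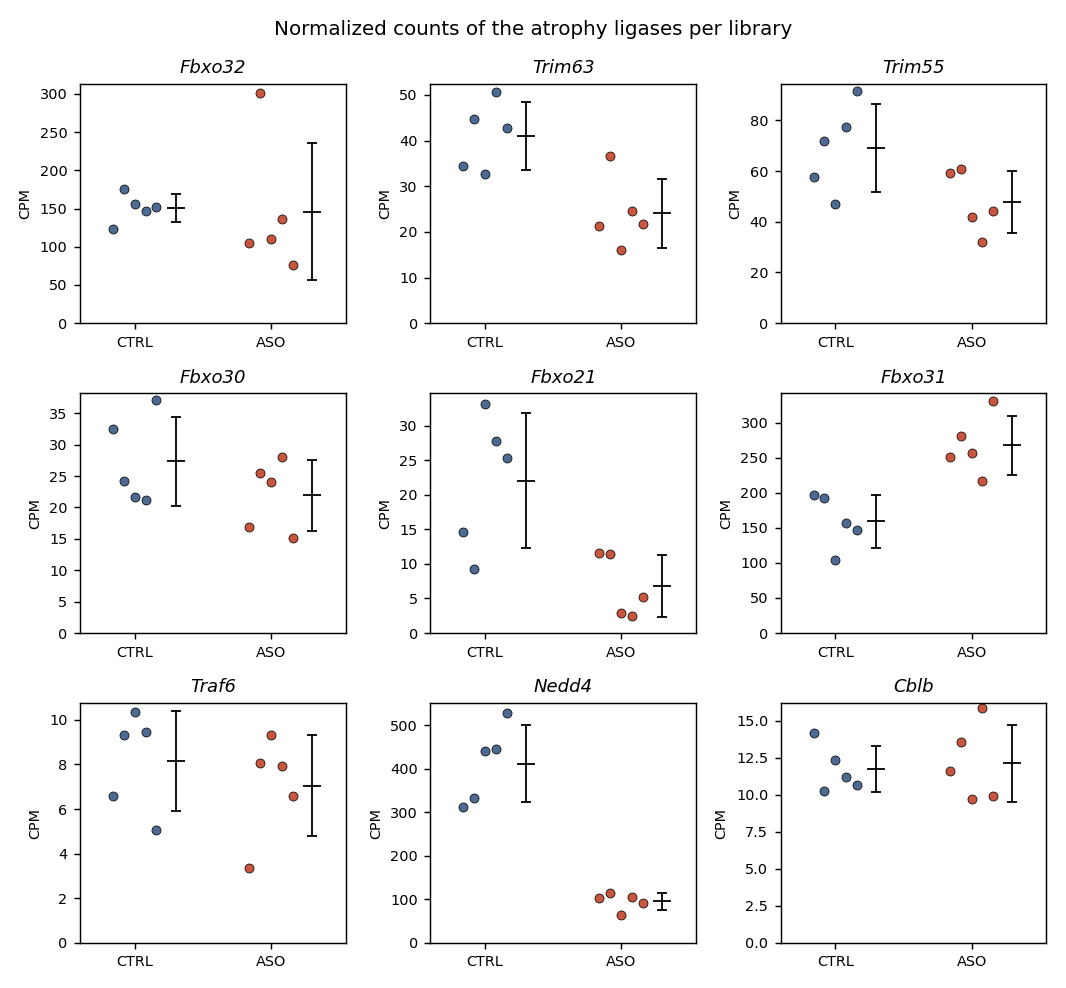
CPM on TMM-scaled library sizes of the 9 tested ligases in each of the 5 CTRL and 5 ASO libraries (points), with the mean and SD beside each group. Nedd4 and Fbxo31 show no overlap between the groups, and Fbxo32 has 1 ASO library at 301 CPM above all the others.

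Levels can be compared between genes only per length, and 6 ligases have a counted segment of 500 unshared bp. Position still differs, as Nedd4 was counted 1694 bp upstream and Traf6 1531 bp before its annotated end. The part of position, and of the distal shift with the ASO, in the order below was not tested. In CTRL, Nedd4 on its upstream segment was at 815 ± 175 CPM per kb, Fbxo31 at 319 ± 75.6 and Fbxo32 at 302 ± 37.3, whereas Fbxo30 on its distal segment was at 31.1 ± 5.76, Cblb at 23.5 ± 3.13 and Traf6 at 16.3 ± 4.47 (SD, n = 5 each). Fbxo31 and Fbxo32 overlapped in CTRL, at 207 to 393 and 247 to 351 CPM per kb. With the ASO the order at the top changed, to Fbxo31 at 535 ± 83.9, Fbxo32 at 292 ± 179 and Nedd4 at 186 ± 39.1 CPM per kb (SD, n = 5 each), and Fbxo32 overlapped with both. The lower 3 kept their order, and Fbxo30 and Cblb overlapped in both groups. Cblb and Traf6 overlapped in CTRL but not in ASO, where Cblb was at 19.5 to 31.7 and Traf6 at 6.76 to 18.6 CPM per kb.

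The ligases also differed in how the counted segments end. An AATAAA or ATTAAA hexamer, the usual polyadenylation signal, was sought in the last 40 bases of the 10 ligase segments with at least 100 counts. It was present in 4, those of Fbxo32 and Trim63 and both of Fbxo30, against 55.3% of 10625 segments with as many counts. The upstream segment of Fbxo30, which fell, has ATTAAA 14 bp before its end. The segments of Nedd4 and Fbxo21 had neither hexamer in that window.

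Fbxo32 and Trim63, the classical pair of atrophy genes, had a Pearson's r of 0.60 and a Spearman's rho of 0.71 for log2 CPM over the 10 libraries, and r was 0.71 after the group means were removed. The points share libraries and depth, and the ASO replicate 2 library was the highest of its group for both. The genes most like Fbxo32 among 7744 were Mto1, Lrrc42 and Fzr1, with r of 0.87, 0.86 and 0.83 over the same 10 libraries. For Trim63 they were Slc30a4, Psmd11 and Fam76a, with r of 0.97, 0.96 and 0.95, and these r values include the difference between the groups.

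**Figure D4:**
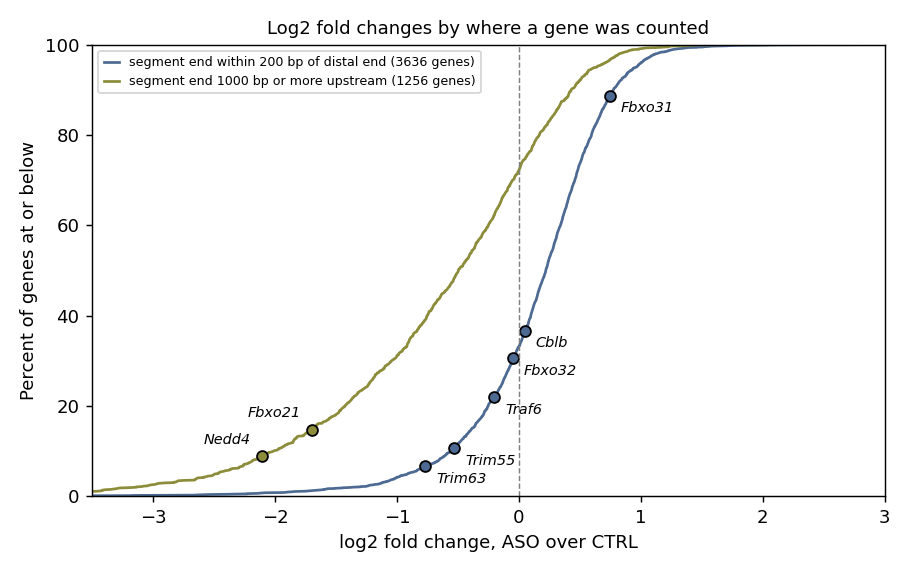
Cumulative percent of genes by log2 fold change of ASO over CTRL, for 3636 genes counted on segments ending within 200 bp of their most distal segment end and 1256 on segments ending 1000 bp or more upstream, with the ligases of each class as points. The upstream curve lies to the left, with Nedd4 at 8.84% and Fbxo21 at 14.7% of it, and Trim63 at 6.6% of the distal curve.

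The partners of the F-box ligases in the SCF complex moved both ways. Cul1, the scaffold, rose from 186 ± 14.5 to 265 ± 17.8 CPM (SD, n = 5 each), that is a log2 difference of 0.50 (edgeR, adjusted p = 0.0067), while the adaptor Skp1 fell by 0.65 on the log2 scale (edgeR, adjusted p = 0.016) with 62.3% of its counts 1000 bp or more upstream. Rbx1, the RING subunit, was at 0.08 (edgeR, adjusted p = 0.64). In the list of SCF core, ubiquitin, E1 and E2 genes, 3 of 27 tested were higher and 7 lower, with a median log2 fold change of −0.06. Those with the smallest adjusted p were Uba6 (−1.60), Ube2v1 (−1.34) and Ube2d3 (−0.63), lower, and Cul1, the ubiquitin gene Ubb (0.50) and Ube2o (0.67), higher. Ube2v1 and Ube2d3 had 97.1% and 78.5% of their counts 1000 bp or more upstream. The calls of Cul1 (down to 0.26), Ubb (down to 0.25), Ube2o and Ube2d3 were lost in at least 1 alternative, with largest adjusted p over the edgeR, DESeq2 and limma alternatives of 0.12, 0.16, 0.084 and 0.17. The E1 gene Uba1 was listed at 0 counts, which in this table does not show that it was not expressed.

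Among other ubiquitin ligases that act in muscle, 3 of 19 tested were higher and 7 lower, with a median log2 fold change of −0.01. Mul1, a mitochondrial ligase, was at −1.81 (edgeR, adjusted p = 0.0011) and Smurf1, which acts on BMP signaling, at −1.31 (edgeR, adjusted p = 0.0048), with 99.7% and 92.7% of their counts 1000 bp or more upstream. Ube3a (−0.85) and Cul3 (−1.13) also fell, with 57.7% and 77.2% of counts upstream, and on the most extreme alternative they were at 0.02 and −0.12. Trim72 (MG53), a TRIM ligase of membrane repair counted wholly near the distal end, fell from 554 ± 92.8 to 337 ± 71.6 CPM (SD, n = 5 each), that is a log2 difference of −0.72 (edgeR, adjusted p = 0.0096). Neurl2 rose by 0.60 on the log2 scale (edgeR, adjusted p = 0.0082, and up to 0.096 over the alternatives), and Fbxo40, an F-box protein that acts on IRS-1, was at 0.44 without passing the threshold (edgeR, adjusted p = 0.12).

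For the regulators known to set Fbxo32 and Trim63, 4 of 40 tested were higher and 12 lower, with a median log2 fold change of −0.04. Foxo1 was listed at 0 in all libraries. The fast muscle markers Tnnt3 and Mylpf were at 0 too, so a 0 here does not show that a gene was not expressed. Foxo3, at 49.0 ± 7.23 CPM in CTRL and 63.4 ± 6.56 CPM in ASO (SD, n = 5 each), did not pass the threshold (log2 fold change 0.37; edgeR, adjusted p = 0.068). Nr3c1, the glucocorticoid receptor, fell by 1.92 on the log2 scale (edgeR, adjusted p = 1.4e-04), with 98.8% of its counts 1000 bp or more upstream. Mapk14 (−2.51), Smad5 (−1.20) and Pdpk1 (−1.49) fell too, with 100%, 46.6% and 46.2% of their counts upstream, and Myog (2.16) and Hdac5 (0.79, with 99.8% upstream) rose. Smad4 fell by 0.49 on the log2 scale (edgeR, adjusted p = 0.015) and lost its call in at least 1 alternative, at an adjusted p of up to 0.16. Akt1 (0.24), Klf15 (−0.05), Nfkb1 (−0.35), Rela (0.05), Smad3 (0.43), Irs1 (0.70) and Ppargc1a (−0.04) did not pass the threshold, and Mstn had too few counts to be tested, at 2.20 CPM in CTRL and 0.845 CPM in ASO.

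Other atrophy genes, the companions of Fbxo32 and Trim63 in catabolic muscle, showed 3 of 26 higher and 4 lower, with a median of 0.10. The proteasome subunit genes Psmd11 (−0.68) and Psmd8 (−0.48) and the lysosomal protease gene Ctsl (−1.16) fell, and the autophagy genes Map1lc3a (0.49) and Ulk1 (0.43) and the repressor gene Bcl6 (0.61) rose. Of these, Psmd11 and Ctsl had 66.2% and 99.5% of their counts 1000 bp or more upstream, and the calls of all but Psmd8 were lost in at least 1 alternative, with the largest adjusted p over the alternatives between 0.073 for Ctsl and 0.38 for Psmd11. Among known substrates and partners of the ligases, 5 of 21 were higher and 1 lower, with a median of 0.46. Ttn (1.41), Mybpc2 (1.54), Ckm (0.93), Tab2 (0.66) and Tax1bp1 (0.48) rose and Nbr1 (−3.70) fell, where Ttn and Nbr1 were counted wholly 1000 bp or more upstream and Ckm was at −0.03 in its most extreme alternative. Tab2 (down to 0.42) and Tax1bp1 (down to 0.23) also lost their calls in at least 1 alternative, with largest adjusted p of 0.13 and 0.23. Myod1, a target of the Fbxo32 protein, was at 0.88 (edgeR, adjusted p = 0.052), and Eif3f, another, had too few counts to be tested, at 3.07 CPM in CTRL and 3.55 CPM in ASO. In the denervation response list, 2 of 8 were higher (Myog and Chrnb1, the latter at 1.25) and 1 lower (Dach2, −1.94), with a median of 0.78.

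**Figure D5:**
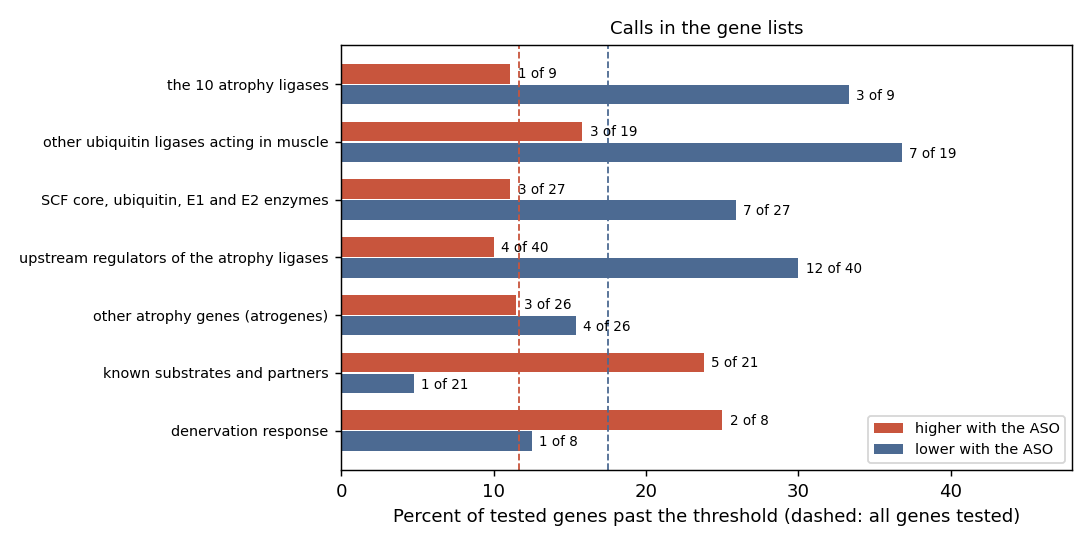
Percent of tested genes higher (red) and lower (blue) with the ASO at an adjusted p under 0.05 in each list, with dashed lines at the 11.7% higher and 17.5% lower of all tested genes. Among the ligases, 1 of 9 was higher and 3 of 9 lower, and the substrates and partners list had 5 of 21 higher.

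Markers of muscle fibers moved with the groups beside the ligases. The tissue label was borne out by a list of fast muscle markers, which also holds Ckm and Acta1, genes not confined to fast fibers. Its summed level was 41733 to 82834 CPM in CTRL and 87603 to 137126 CPM in ASO, without overlap. Of 5 tested, 3 were higher (Actn3, Mybpc2 and Ckm) and none lower, and Tnnt3 and Mylpf were at 0. Ckm averaged 19247 CPM in CTRL and 36666 CPM in ASO, with 97.6% of its counts 1000 bp or more upstream. Its log2 fold change went down to −0.03 over the alternatives (edgeR, DESeq2 and limma, adjusted p up to 0.94). Satellite cell markers summed to 74.1 to 102 CPM in CTRL and 138 to 162 CPM in ASO, with 1 of 4 tested higher (Cdh15) and Calcr at 0. The summed levels of the macrophage, adipocyte, Schwann cell, endothelial, fibroblast, blood and slow muscle markers overlapped between the groups. Their median log2 fold changes were −1.06 for adipocyte, −1.01 for macrophage, −0.75 for fibroblast, 1.51 for slow muscle, 0.29 for Schwann cell, 0.15 for endothelial and 0.17 for blood markers, and 1 macrophage marker (Mrc1) and 1 fibroblast marker (Lum) were lower past the threshold. The part of these marker levels in the ligase values was not tested.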

How the data were processed

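Gastrocnemius RNA of 5 CTRL and 5 ASO samples was sequenced as paired ends from stranded mRNA libraries. The authors used fastp for trimming, STAR for alignment to GRCm39 and featureCounts for counting, and deposited raw counts per transcript segment. Their methods name Gencode M25 and counting of read pairs within the last 500 bp of 3′UTRs. M25 is a GRCm38 annotation, whereas the segment coordinates are on GRCm39, so the annotation behind the counts is not settled here. The strand setting of the counting is not given in the sources used here. Of 52423 segments, 52361 matched GENCODE M39 on GRCm39, and the other 62, with 0.0197% of the counts, were kept as rows of their own. A further 4 per-sample columns were not used.

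Segments were summed per gene and tested with edgeR 4.0.16 (R 4.3.3) (TMM, its low-count filter, quasi-likelihood test), with Benjamini-Hochberg adjustment over the 7819 genes left. Single values were compared by exact permutation tests, two-sided, over the 252 labellings, on log2 CPM with a prior count of 2. Library totals were 1606909 to 2632560, and the floor of 3 counts covers counting error only. The procedure was tested on simulated data with a common dispersion and without the distal shift, so that test does not cover the shift. Alternatives were DESeq2 1.42.0, limma-voom (limma 3.58.1), other scalings and filters, each segment or the most distal counted segment alone, counts drawn down to the smallest library, a replicate block, and fits without each library in turn. Python 3.11.15 with pandas 2.3.3, scipy 1.17.1 and matplotlib 3.10.9 did the rest.

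The 10 ligases and all lists were chosen with earlier results of these data known. Named were the 10 ligases, up to 6 genes past the threshold by smallest adjusted p per list, the regulators and partners Foxo1, Foxo3, Akt1, Mstn, Nr3c1, Klf15, Nfkb1, Rela, Smad3, Smad4, Skp1, Cul1, Rbx1, Eif3f, Myod1, Myog, Fbxo40, Irs1 and Ppargc1a, and the 3 genes with the highest r to Fbxo32 and to Trim63 among those whose mean was 10 counts per library or more.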

Additional observations from a re-analysis of the deposited data

Results flagged for a closer look

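Fbxo32 in ASO replicate 2 was at 301 CPM, far from the other 4 ASO libraries at 75.9 to 137 CPM. The gap to the nearest library was 0.729 of the group's range, above Dixon's critical value of 0.71 for 5 samples. It was the 1 value so marked among 18 groups of 5 (9 ligases in 2 groups), and chance marks about 1 in 20 groups.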

How the results depend on the processing

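Of the 9 tested ligases, Nedd4 stayed lower and past the threshold in all 21 alternatives set at the outset, with log2 fold changes of −2.38 to −1.96. The −2.38 came from the fit on the most distal counted segment, that is the most distal one with an unshared base. For Nedd4 that was the same segment 1694 bp upstream, so this fit could not test the distal shift for it. The direction of Fbxo32 turned with upper quartile scaling (0.040) and, over fits without 1 library, its value ran from −0.48 to 0.14. That of Cblb turned with total counts (−0.12), on the most distal counted segment alone (−0.22) and in a fit, chosen after seeing the data, to genes on segments ending near the distal end (−0.20), and ran from −0.045 to 0.15 without 1 library. On the most distal counted segment alone, with 5534 genes and 7 ligases tested, 829 genes passed the threshold against 2281, and 0 ligases were higher, as Fbxo31 was at 0.51 (edgeR, adjusted p = 0.064). Trim55 passed the threshold there (−0.78; edgeR, adjusted p = 0.042) and with total counts (−0.71; edgeR, adjusted p = 0.025). Fbxo31, Trim55, Fbxo32 and Traf6 have all their counts on 1 segment, and Cblb has 99.2%. For these, that fit used the counts of the main fit, or nearly so, under another scaling and gene set. The part of position in their changes there, through that scaling and gene set, was not tested. Trim63 and Fbxo21 were not tested in it, since the segments taken for them drew 0 counts. Fits without 1 library gave 1825 to 2373 genes, 2 to 4 ligases lower and 1 higher. Total counts gave 528 genes higher and 1821 lower and moved the all-gene median log2 fold change by −0.18, upper quartile scaling gave 1261 and 1207, and TMM gave 916 and 1365. In the paired fit with a replicate block, 1838 genes passed, 2 ligases were lower and 1 higher, and Fbxo21 lost its call (−1.73; edgeR, adjusted p = 0.058). The samples share only a number, since the deviations of same-numbered samples correlated at −0.43 to 0.16 and replicate 4 alone correlated best with its own number. Counts of 161 for Traf6, 253 for Cblb and 285 for Fbxo21 over 10 libraries limit what could be detected for these.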
